A study of Oryza sativa with 16 samples.

Results

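IR64, an indica variety of rice, was compared with Nipponbare, a japonica variety, in shoots, on 4 of the 16 2-color arrays of the series. The 4 arrays were chosen by their labels, and on each of them RNA from IR64 shoots was hybridized together with RNA from Nipponbare shoots. They form 2 replicates of 2 array sets, since the probes were spread over a pair of array designs. IR64 was labeled with Cy3 and Nipponbare with Cy5 in replicate 1, and the dyes were exchanged in replicate 2, so that replicate, extract and dye orientation cannot be told apart. According to the study's methods, shoots of both varieties came from potted seedlings in a greenhouse, their RNA was extracted with Trizol and material of several plants was pooled. The labels name soil and give 10 days of growth for both varieties, and the age in the methods differs from this. The remaining 12 arrays compared Nipponbare root, panicle and callus with Nipponbare shoot and enter here through the shared estimate of the spread and as a record of the same probes in other tissues. Nothing states that the 2 replicates were grown separately, so the p-values measure only the spread between these hybridizations.

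Indica and japonica are the major subspecies of cultivated rice, and their genomes differ by many single-base changes, insertions and deletions, and by genes that are present in one and missing from the other. The 60-mer probes of the arrays were designed on Nipponbare sequence. A probe can therefore give less signal with IR64 RNA because less RNA is present or because the RNA differs in sequence under the probe, and these cannot be told apart in a signal ratio. In a whole shoot, fewer cells of a type and less RNA per cell cannot be told apart either.

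The arrays held 83040 different probes. The FL-cDNA loci, positions to which full-length cDNA clones were mapped, carried several probes in some cases: a probe common to the transcripts of the locus (ending in C), probes for variants (ending in S and a number) and further probes whose identifiers begin with E5. Each of 1028 other probes represented a single clone of this collection (identifiers that begin with AK). The rest came from a class named END3TU in the identifiers (called 3'-end units here) and from TIGR gene models, either on the CDS (ending in CDS) or in a class named ENDS (ending in END). The identifiers could not be paired with gene names here, and the probe sequences were not used here, so members are described by identifier and design class, and the labelled tissue could not be checked against marker genes. The 2 digits after R in an identifier are the chromosome in the design's naming, and F or R at the end is the strand.

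A signal counts as well above background here when it passed both background steps of the scanner software, and 65381 probes, called bright here, did so in both channels of both replicates (78.7%). The other 17659 probes are called dim. Over the 4 arrays, 84.3 to 89.5% of probes were well above background in the IR64 channel and 84.5 to 91.9% in the Nipponbare channel. The median log2 ratio of IR64 over Nipponbare lay between -0.02 and 0.04 on the 4 arrays. Between 27 and 2047 spots of an array were marked as outliers and left out, which left 63681 bright probes with a ratio in both replicates. A level in the text is a processed signal scaled so that the median probe of its channel is 1000; levels of different probes are not compared.

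A smaller share of probes differed between IR64 and Nipponbare shoots than between Nipponbare shoot and other Nipponbare tissues. Of the bright probes, 4.62% were at least 2-fold higher or at least 2-fold lower in IR64 in both replicates. In root, panicle and callus against Nipponbare shoot the corresponding shares were 27.5%, 26.7% and 30.8%. The 4 comparisons were scanned on separate days and the bright probes were chosen in each, so the shares stand side by side without a test.

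More probes were lower than higher in IR64. With limma and an adjusted p under 0.05, 3549 of the 83034 probes tested were lower, a background of 4.27%, and 2371 were higher, a background of 2.86%. Large decreases were also more frequent than large increases: 158 called probes were lower by more than 16-fold and 24 were higher by more than 16-fold. Among the bright probes the numbers were 96 and 17. The median log2 ratio was -1.44 over the probes called lower and 1.21 over those called higher, against 0.02 over all probes tested.

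These calls rest on a spread estimated over all 8 arrays of an array set. When only the IR64 arrays entered the fit, limma called 0 probes higher and 0 lower, although 9588 had an unadjusted p under 0.05. When the same fit was limited to bright probes, a choice made after seeing the data, 810 were called higher and 1333 lower. Without replicate 1, 1121 of the 2371 higher and 2032 of the 3549 lower calls were kept, and without replicate 2, 1061 and 2002.

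**Figure D1:**
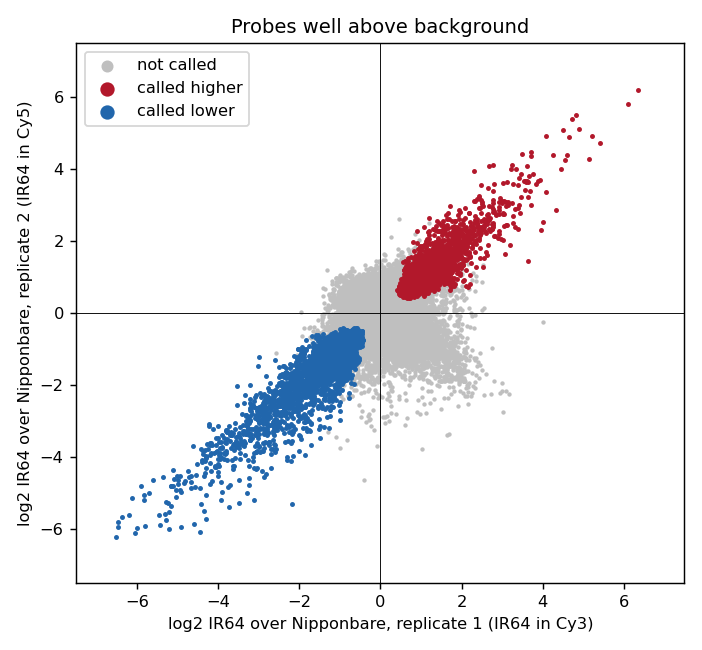
Each point is 1 of the 63681 bright probes with a ratio in both replicates; the axes give log2 of IR64 over Nipponbare in replicate 1 and replicate 2, which have opposite dyes. Probes called higher are red, those called lower are blue, and the gray points at the lower right, 427 of them at least 2-fold, changed sign between the replicates.

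The replicates resembled each other at bright probes and not at probes of the lowest mean level. Pearson's r between the replicates was 0.61 over the 63681 bright probes, which are not independent of each other and share arrays. When all probes were divided by mean level into 10 groups of equal size, r was -0.40 in the dimmest group (group 1), 0.38 in group 4 and 0.91 in group 9. It was 0.67 in group 10, the brightest. The share of probes called lower rose from 0.842% in group 1 to 6.05% in group 7, so that few differences could be called in group 1 at this precision. These groups are not the dim and bright probes defined above. Dim probes were called lower in 3.40% and higher in 1.43%, and bright probes in 4.51% and 3.24%.

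Some bright probes changed sign between the replicates and so did not follow the variety, and dye and extract cannot be told apart in this. At 427 bright probes IR64 was at least 2-fold higher in replicate 1 and at least 2-fold lower in replicate 2, and at 1 probe the reverse was seen. At these 427 the Cy3 channel was the brighter one in both replicates. In the root, panicle and callus comparisons 27, 28 and 19 bright probes did the same. The probes described below as higher or lower had the same sign in both replicates.

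The balance between lower and higher probes depended on the class of design sequence. Probes on 3'-end units were called lower in 7.30% and higher in 4.33% of 8475 tested, and probes on FL-cDNA loci in 5.89% and 2.99% of 37441. The 1028 clone probes were called lower in 4.86% and higher in 1.26%. ENDS models went the other way, with 2.80% lower and 3.89% higher of 14330, and CDS models had few calls of either kind, 1.25% lower and 1.45% higher of 21760. Among bright probes the order of lower and higher was the same in all 5 classes, with 248 higher and 189 lower in CDS models. Within the FL-cDNA loci, common probes were called lower in 5.99% and higher in 3.54%, E5 probes in 6.25% and 2.62%, and variant probes in 4.26% and 1.40%. The classes differ in brightness, and the part of brightness in these shares was not tested.

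The 2 most decreased bright probes of each class were between 18.7-fold and 82.7-fold lower in IR64 shoot. The 3'-end unit R03-E3TU-00836F had a level of 37557 and 33333 in Nipponbare shoot and of 412 and 465 in IR64 shoot. The log2 ratio was -6.37 ± 0.21 (SD, n = 2), or 82.7-fold lower in IR64 (limma, SE 0.13, adjusted p = 0.000129). The same probe was bright in every other Nipponbare sample, with 25986 and 33285 in root, 23186 and 20305 in panicle and 16776 and 17740 in callus, so that IR64 shoot lay below each of them.

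R12-E3TU-00615F was of a different kind, since in Nipponbare it was high in shoot alone among the 4 samples. Its level was 111991 and 120253 in Nipponbare shoot and 1271 and 2011 in IR64 shoot, a log2 ratio of -6.21 ± 0.36 (SD, n = 2; 74.3-fold lower, limma, adjusted p = 0.000129). Nipponbare root had 1878 and 2456, panicle 825 and 992, and callus 1155 and 1162. The IR64 shoot values thus lay within the range of the non-shoot tissues of Nipponbare. The common probe R10-00388R_C showed the same arrangement, with 160407 and 161814 in Nipponbare shoot, 1827 and 2982 in IR64 shoot, and between 1415 and 8870 in root, panicle and callus. Its log2 ratio was -6.14 ± 0.46 (SD, n = 2; 70.6-fold lower, limma, adjusted p = 0.000137). The ENDS model 9640.m03245_END did so at a lower level, with 11225 and 16137 in Nipponbare shoot, 538 and 968 in IR64 shoot, and between 437 and 1097 in the other tissues (log2 ratio -4.24 ± 0.22, SD, n = 2; limma, adjusted p = 0.000425).

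The remaining named decreases were at probes bright throughout Nipponbare. Clone AK062819, measured on all 4 arrays, had 80713 and 100085 in Nipponbare shoot against 1244 and 1468 in IR64 shoot, a log2 ratio of -6.10 ± 0.04 (SD, n = 2; limma, adjusted p = 0.000181). Clone AK099053 had 16833 and 19136 against 429 and 411, a log2 ratio of -5.45 ± 0.20 (SD, n = 2; limma, adjusted p = 0.000129). In callus, the Nipponbare sample where this clone was brightest, it reached 95155 and 89144. The variant probe R06-00523F_S1 had 211765 and 161603 against 2574 and 3289, a log2 ratio of -6.02 ± 0.49 (SD, n = 2; limma, adjusted p = 0.00106). The ENDS model 9631.m00984_END was 18.7-fold lower, the CDS model 9631.m00348_CDS 25.7-fold lower and the CDS model 9635.m01833_CDS 23.7-fold lower, with limma adjusted p of 0.000192, 0.00105 and 0.00101. In none of the 10 probes did a value of IR64 shoot overlap with those of Nipponbare shoot, which the choice of the probes brings with it.

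The largest increases reached 77.4-fold in CDS models and 3.62-fold in clones. The CDS model 9632.m04206_CDS had 133 and 209 in Nipponbare shoot and 10939 and 15572 in IR64 shoot, a log2 ratio of 6.27 ± 0.11 (SD, n = 2; 77.4-fold higher, limma, SE 0.37, adjusted p = 0.000372). With another background correction and normalization (normexp, loess and Aquantile) its log2 ratio was 4.15, so the fold depends on how the low Nipponbare signal is treated. The probe was not well above background in any hybridization of Nipponbare root, panicle or callus. The CDS model 9639.m02892_CDS had 335 and 378 in Nipponbare shoot and 23235 and 21930 in IR64 shoot, a log2 ratio of 5.96 ± 0.21 (SD, n = 2; 62.1-fold higher, limma, adjusted p = 0.000215), and was well above background in 1 of the 6 hybridizations of other tissues. Both thus had a high level with IR64 RNA and a low one in Nipponbare shoot on the same arrays, still well above background there. In most hybridizations of the other Nipponbare tissues they were not well above background.

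Other increases were at probes with a clear signal in Nipponbare. R05-E3TU-00287F had 10932 and 8648 in Nipponbare shoot and 313076 and 401309 in IR64 shoot, 36.0-fold higher, and between 2711 and 9456 in root, panicle and callus (log2 ratio 5.17 ± 0.48, SD, n = 2; limma, adjusted p = 0.000181). The ENDS model 9633.m00995_END had 19864 and 10443 against 453303 and 370614 (27.8-fold, limma, adjusted p = 0.000536). The common probe R12-00309R_C had 3937 and 4030 against 93622 and 79825 (21.2-fold, limma, adjusted p = 0.000137). In these 3 probes IR64 shoot was above every Nipponbare sample measured. The largest increases among clones were 3.62-fold for AK066843 (limma, adjusted p = 0.00451) and 3.17-fold for AK071108 (limma, adjusted p = 0.0048). At both clones Nipponbare shoot was lower beside IR64 than in every other shoot hybridization. At AK066843 it was 15349 and 13700 against 16144 to 26220, and at AK071108 34356 and 32152 against 35249 to 54845. Set against the median of those others, IR64 shoot was 2.34-fold and 2.42-fold higher. AK066843 was brighter in Nipponbare panicle, at 182606 and 217007, than in IR64 shoot, at 49376 and 57636.

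**Figure D2:**
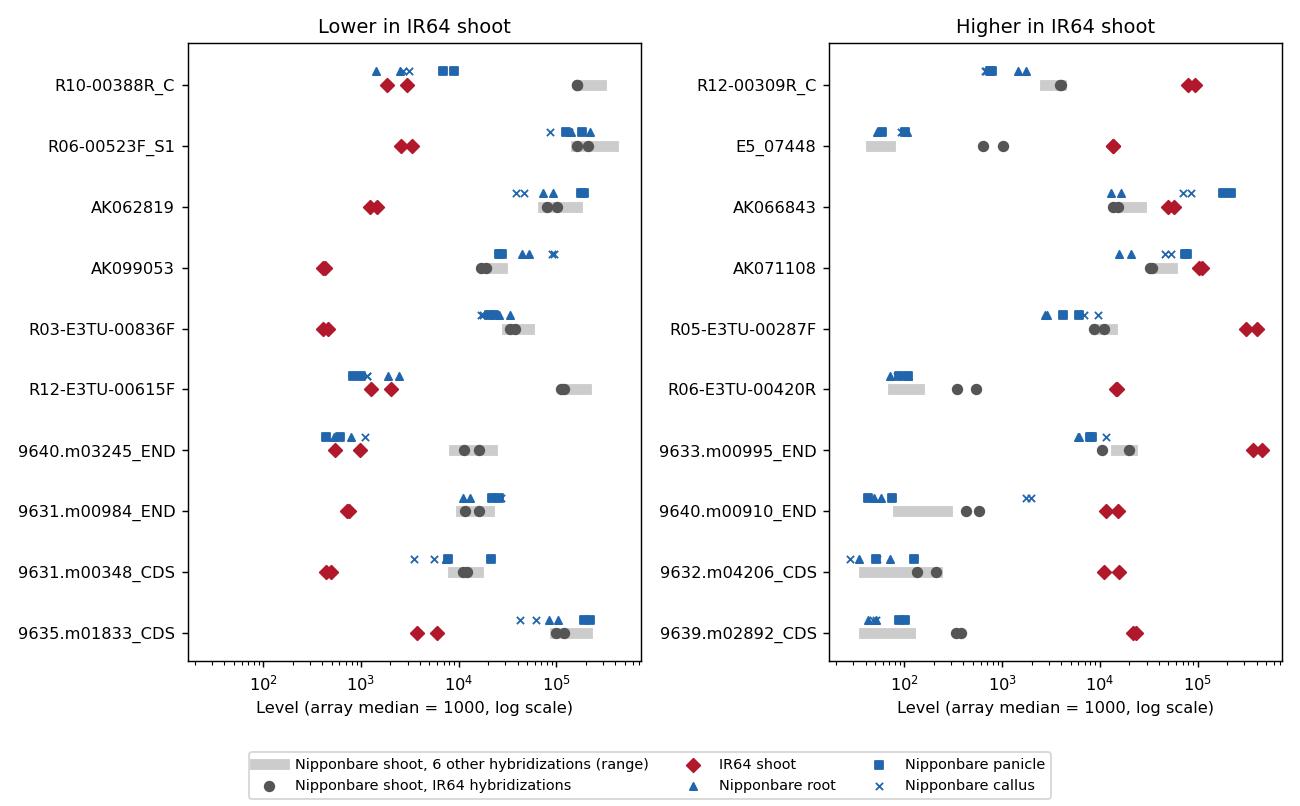
Levels, on a log axis, of the 10 named bright probes lower in IR64 shoot and the 10 higher; each symbol is 1 hybridization and the gray bars are the range of Nipponbare shoot over the 6 hybridizations with other tissues. At E5_07448, R06-E3TU-00420R, 9640.m00910_END and 9639.m02892_CDS the Nipponbare shoot points from the IR64 arrays lie to the right of the gray bar.

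For several of the largest increases, the Nipponbare shoot signal itself was higher on the arrays shared with IR64 than on the others. At E5_07448, a probe of the locus R10-CHRv2-00350R, the Nipponbare shoot level was 1027 and 633 beside IR64 and between 45.5 and 70.9 in the 6 hybridizations beside root, panicle and callus. At R06-E3TU-00420R it was 344 and 544 beside IR64 and between 77.0 and 142 elsewhere, at 9640.m00910_END 430 and 576 against 86.5 to 273, and at 9639.m02892_CDS 335 and 378 against 38.4 to 115. All 4 were far brighter with IR64 RNA on the same arrays. The IR64 shoot level was 13645 and 13684 at E5_07448, 14738 and 15044 at R06-E3TU-00420R (33.6-fold higher, limma, adjusted p = 0.000637) and 15194 and 11623 at 9640.m00910_END (26.1-fold higher, limma, adjusted p = 0.000719). 9640.m00910_END was also detected in Nipponbare callus, at 1983 and 1753.

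Of the 17 bright probes called higher by more than 16-fold, 8 had both Nipponbare shoot values beside IR64 above all 6 others (47.1%), against 6.41% of the 61495 bright probes with 8 values. Of the 96 called lower by more than 16-fold, 0 did. The opposite shift, with both Nipponbare shoot values beside IR64 below all 6 others, was seen at 25 of the 96 (26.0%). It was seen at 0 of the 17 and at 13.2% of the bright probes with 8 values. Among bright probes called lower the share was 29.4%, and among those called higher 18.8%. Over the 17 probes the Nipponbare shoot level beside IR64 was a median of 2.67 times that in the other hybridizations, and over all bright probes 0.938 times. Bright probes had to be well above background in Nipponbare shoot on the IR64 arrays. A probe near background elsewhere could thus enter the 17 only where that channel was raised. Part of the excess may come with this filter, and how much was not tested. The 96 called lower have a high Nipponbare signal by their choice and are no control for this. What raised the Nipponbare channel was not tested either. On its own arrays E5_07448 was 16.6-fold higher in IR64 shoot (limma, adjusted p = 0.0015).

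Some probes were detected with RNA of only one variety. In both replicates 392 probes were well above background in Nipponbare shoot and in neither replicate in IR64 shoot, and 132 were so in IR64 shoot alone. These counts rest on both replicates together: in replicate 1 alone 6532 probes were detected only with Nipponbare RNA and 1387 only with IR64 RNA, and in replicate 2 alone 1855 and 5634, so that the excess changed sides with the replicate and the dye. Of the 392, limma called 220 lower, and of the 132 it called 62 higher. Over all probes tested, 4.27% were called lower and 2.86% higher. The 392 and 132 were chosen on the same arrays for a signal in 1 variety, which brings the direction of their calls with it. The 392 and 132 were found among all 83040 probes. By class, 180 of 37444 FL-cDNA probes were detected only with Nipponbare RNA and 41 only with IR64 RNA. The counts were 56 and 19 of 8476 probes of 3'-end units, 74 and 39 of 14331 of ENDS models and 82 and 33 of 21761 of CDS models. The class counts thus follow in part from the sizes of the classes. A further 4244 probes were not well above background in any of the 4 channels. For such a probe only a bound on the fold can be given, computed from background-corrected channels against the dimmest detected signal of each array. The median bound was 1.24-fold for the 392 and 1.23-fold for the 132.

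The largest bound among the probes detected only with Nipponbare RNA belonged to R01-00605R_C, which was at least 7.8-fold lower in IR64 (limma, adjusted p = 0.000215). Its level was 6086 and 4262 in Nipponbare shoot, and between 1256 and 2974 in root, panicle and callus. R12-E3TU-00409F was at least 6.35-fold, R07-E3TU-00812R at least 6.08-fold and E5_12800 at least 6-fold lower. The limma adjusted p of their ratios were 0.000137, 0.000571 and 0.000152. All 4 were well above background in root, panicle and callus too. Of the 392 probes, 258 were detected in all 6 hybridizations of the other Nipponbare tissues (65.8%) and 11 in none, where 96.3% of bright probes were detected in all 6.

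Of the 132 probes detected only with IR64 RNA, 38 were detected in all 6 hybridizations of other tissues (28.8%) and 18 in none (13.6%). R08-E3TU-00556F was at least 3.33-fold higher in IR64 and was not well above background in root, panicle or callus (limma on the ratio, adjusted p = 0.00443). The ENDS model 9633.m01963_END was at least 2.85-fold higher, and was detected in all 6 hybridizations of root, panicle and callus at levels of 162 to 712, against 1048 and 1902 in IR64 shoot. Its Nipponbare shoot level was 44.8 and 79.0 beside IR64 and between 52.3 and 267 in the other 6 hybridizations. R11-00490F_C was at least 2.71-fold higher and was detected in panicle, at 1044 and 815, but its 2 replicates in IR64 shoot differed widely, at 1223 and 3289. Nipponbare shoot was at 57.9 and 29.5 at this probe beside IR64 and between 37.2 and 582 in the other 6 hybridizations, so its detection with IR64 RNA alone holds for the IR64 arrays. 9633.m00909_END was at least 2.55-fold higher. The limma adjusted p of the ratios of these 3 were 0.000313, 0.00264 and 0.00155.

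FL-cDNA loci with several probes show whether a difference was shared by all counted probes of a locus or only by some. Where the probes lie on a transcript was not known here, so coverage of the transcript cannot be read from them. A locus was counted as lower throughout when it had at least 3 probes well above background in Nipponbare shoot and each of them was at least 2-fold lower in both replicates. Of the 2264 loci with enough probes, 28 were lower throughout (1.24%), 220 had some such probes but not all, and 2016 had 0. Of the probes well above background in Nipponbare shoot, 3.4% were at least 2-fold lower in both replicates over the whole arrays, and 5.09% of the 14173 probes of these loci. Of the 2259 loci with enough probes in IR64 shoot, 3 were higher throughout, 84 in part and 2172 at no probe. The corresponding share of all probes well above background in IR64 shoot was 2.01%, and 1.61% among the probes of these loci. Probes of a locus share its transcripts and are not replicates, and the number of throughout-lower loci was 4 when each probe had to be 4-fold lower. The number of throughout-higher loci was 0 at 4-fold, 8 in replicate 1 alone and 6 in replicate 2 alone.

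R08-CHRv2-00225F had the largest decrease of the loci lower at 10 probes. In replicate 1 its probes ranged from 73126 to 319927 in Nipponbare shoot (median 191011) and from 2063 to 52302 in IR64 shoot (median 16212). The median log2 ratio over the probes was -3.71, or 13.1-fold lower, with single probes from -5.44 to -2.32, and limma called all 10. The decrease thus differed by several-fold between probes of the same locus, but was present at each. In the other Nipponbare tissues the median probe was between 34160 and 91712, above IR64 shoot.

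R07-CHRv2-00184R had a median of 12630 and 13562 over its 10 probes in Nipponbare shoot and of 3324 and 1685 in IR64 shoot. Its median log2 ratio was -2.06 in replicate 1 and -3.26 in replicate 2, and all 10 probes were lower in replicate 2 than in replicate 1, so that the decrease was present in both replicates and its size differed between them. R11-CHRv2-00067R had 8156 and 8006 against 1893 and 1761, a median log2 ratio of -2.27, and R05-CHRv2-00772F 16391 and 17004 against 4351 and 4726, a median log2 ratio of -2.23. In R05-CHRv2-00772F a single probe stood apart from the others, at -4.87, while the highest was at -1.65. Over the 28 loci the median log2 ratio of a locus ranged from -4.08 to -1.28, and 197 of the 198 probes were called lower by limma.

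The 3 loci higher throughout differed in how even their ratios were. R02-CHRv2-00076R had a median of 50113 and 51153 in Nipponbare shoot and 136446 and 129825 in IR64 shoot. Its 10 probes lay between 1.12 and 1.48 on the log2 scale, with a median of 1.37 (2.59-fold), and limma called all 10. In Nipponbare its median was lower in root (13150 and 17222), panicle (5164 and 5049) and callus (9457 and 10090) than in shoot. R03-CHRv2-01154F had a median log2 ratio of 1.54 (2.90-fold) over 10 probes, 9 of them called, and its median was 1.29 in replicate 1 and 1.81 in replicate 2. R04-CHRv2-00163F had a median of 2.20 (4.60-fold) over 9 probes, all called, with single probes from 1.57 to 2.47. R04-CHRv2-00163F was low in callus, at 246 and 197, and between 1190 and 2000 in root and panicle.

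**Figure D3:**
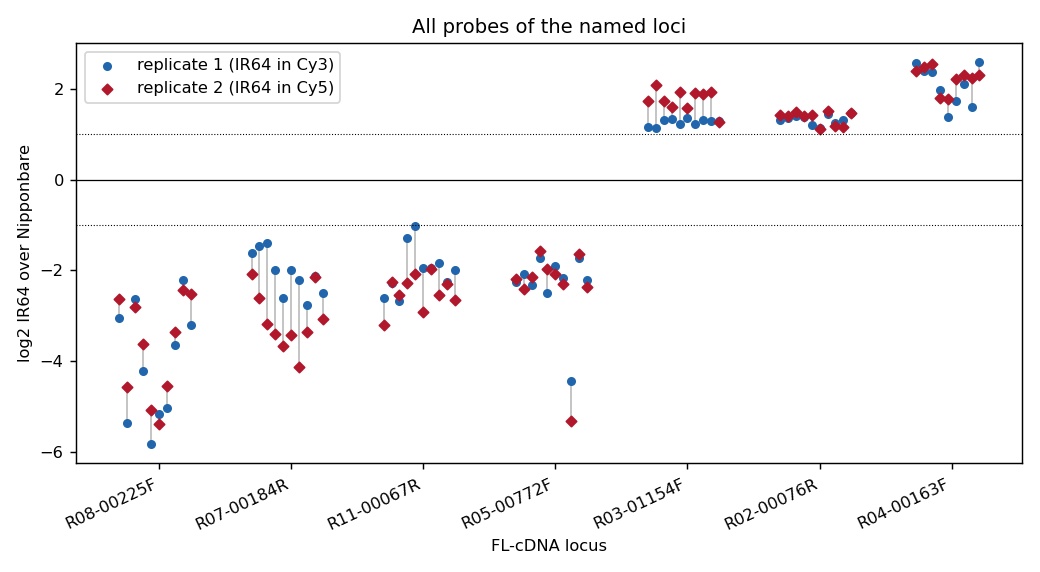
Log2 ratio of IR64 over Nipponbare at every probe of the 4 named loci lower throughout and the 3 higher throughout; blue circles are replicate 1, red diamonds replicate 2, gray lines join the replicates of a probe, and dotted lines mark 2-fold. All probes lie outside the dotted lines, and at R07-00184R the diamonds lie below the circles.

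Most loci with a lower probe were not lower throughout. In the 220 loci with some lower probes, 114 had 1 such probe, and the distance between the lowest and the highest log2 ratio of a locus had a median of 1.80 and a maximum of 5.96. The locus with the widest distance was R06-CHRv2-00523F, chosen after its values were seen. Of its 11 counted probes 10 were at least 2-fold lower, from -6.02 at the variant probe R06-00523F_S1 to -2.68, and the other variant probe, R06-00523F_S2, was at -0.07, with 771 and 571 in Nipponbare shoot against 656 and 628 in IR64 shoot. The probes of the 2 variants of this locus thus differed, one 65.0-fold lower in IR64 and one without a detectable difference (limma, adjusted p = 0.975). At R11-CHRv2-00285F, second by this distance, 9 of 10 probes were lower, down to -5.88 at E5_08021, and E5_05998 was at -0.11, with 29250 and 44206 in Nipponbare shoot against 29282 and 38822 in IR64 shoot.

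Among FL-cDNA loci and 3'-end units, the share of lower loci was larger directly after a lower locus than overall. Loci of a class were ordered by number within chromosome and strand, or within prefix for gene models, whose identifiers give no strand. A locus counted as lower when each of its probes well above background in Nipponbare shoot was at least 2-fold lower in both replicates. Of 18845 FL-cDNA loci 593 were lower (3.15%), and of the next loci after a lower locus 49 of 592 were lower (8.28%). For 3'-end units the shares were 6.08% overall and 9.49% after a lower unit. In ENDS models they were 2.11% and 2.26%, and in CDS models 1.04% and 2.58%, the latter from 4 of 155. For higher loci the shares were 1.54% and 2.08% in FL-cDNA loci, 2.94% and 3.38% in 3'-end units, 3.53% and 8.06% in ENDS models and 1.33% and 3.50% in CDS models. Probes of neighbouring genes that are near-identical copies can take up the same RNA, and whether the neighbours are such copies was not tested. No test was made of these shares.

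Runs of at least 3 consecutive lower loci numbered 11, each 3 loci long, 6 of 3'-end units and 5 of FL-cDNA loci, with 0 among ENDS and CDS models. The number was 2 when each probe had to be 4-fold lower, 18 in replicate 1 alone and 29 in replicate 2 alone. Consecutive means next in order among the loci of the same class that counted, so other loci can lie between. One run of 3'-end units was numbered from 2185 to 2205. No coordinates were used. The run with the largest decrease comprised the 3'-end units R01-E3TU-00420R, R01-E3TU-00423R and R01-E3TU-00426R, at log2 ratios of -5.61, -2.16 and -3.91. R01-E3TU-00420R had 25046 and 28112 in Nipponbare shoot against 678 and 447 in IR64 shoot. In the second run the ratio went from -1.83 at R12-00220R_C through -3.56 at R12-00221R_C to -5.99 at R12-00222R_C, the last with 15090 and 15106 against 237 and 248. The third run, R01-00457F_C, R01-00458F_C and R01-00459F_C, had ratios of -2.84, -1.16 and -3.65. R01-00458F_C and R01-00459F_C were brightest in panicle, at 5363 and 5802 and at 7027 and 6611, against 554 and 437 and 910 and 646 in Nipponbare shoot. All 9 probes of these runs were called lower by limma.

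One of the other 8 runs followed directly on the locus R06-CHRv2-00523F described above. It held the next 3 loci on the same strand, with 12 probes, 11 of them called lower by limma, and a median log2 ratio of -2.24. Because of its variant probe R06-00523F_S2, R06-CHRv2-00523F itself did not count into the run.

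Runs of higher loci numbered 3, against 0 at 4-fold and 9 in either replicate alone. The longest was formed by 7 ENDS models with the prefix 9635, from 9635.m03338_END to 9635.m03363_END. Their log2 ratios ranged from 1.23 at 9635.m03350_END to 1.97 at 9635.m03338_END, and limma called 5 of the 7. At 9635.m03339_END the level was 30996 and 28481 in Nipponbare shoot and 84282 and 69298 in IR64 shoot (log2 ratio 1.33, limma, adjusted p = 0.0184). At 9635.m03345_END, with 42596 and 48712 against 105709 and 128462, the limma adjusted p was 0.0595, and at 9635.m03338_END it was 0.056. The 5 models from 9635.m03339_END to 9635.m03350_END were also brighter in every hybridization of root, panicle and callus than in Nipponbare shoot, as 9635.m03339_END was with 123946 and 128198 in root and 140523 and 163675 in callus. Of the 3 CDS models numbered between the first and the last of the run, 2 were bright with both ratios, at 0.03 and 0.61, and 0 were 2-fold higher in both replicates. A single ENDS model in the interval was dim and did not count; with dim probes counted, the longest run was 4 models.

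**Figure D4:**
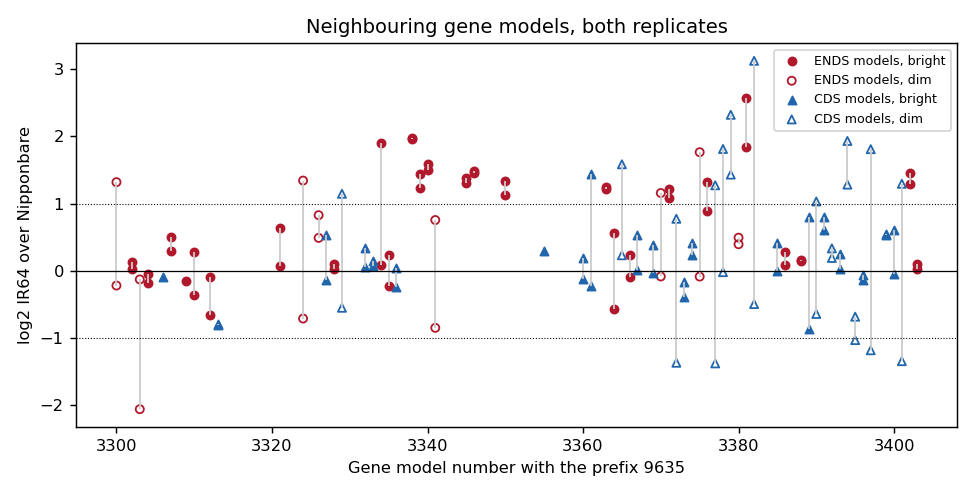
Log2 ratio of IR64 over Nipponbare at ENDS (red circles) and CDS (blue triangles) models with the prefix 9635, against model number; both replicates are drawn and joined, open symbols are dim probes and dotted lines mark 2-fold. The 7 filled circles from 3338 to 3363 that form the run lie between 1.12 and 1.98 in both replicates.

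The other runs of higher loci were shorter. A further 3 ENDS models of the same prefix, 9635.m02769_END, 9635.m02783_END and 9635.m02799_END, had log2 ratios of 1.22, 2.24 and 1.95, and limma called 2 of them. The FL-cDNA loci of R01-00513R_C, R01-00514R_C and R01-00516R_C had ratios of 1.80, 2.38 and 1.46, and limma called all 3. R01-00516R_C was at 6819 and 8112 in Nipponbare shoot, 17127 and 24864 in IR64 shoot and 33005 and 36036 in panicle, while R01-00514R_C was brighter in IR64 shoot, at 11139 and 11447, than in any Nipponbare sample measured.

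By chromosome in the identifiers, FL-cDNA loci of chromosomes 11 and 12 had the highest shares of lower probes. Of the probes of FL-cDNA loci tested, 9.77% were called lower on chromosome 11 and 8.90% on chromosome 12, and between 4.46 and 6.43% on the other 10. With only the common probe of each locus, which counts a locus once, the share was 9.49% on chromosome 11, 7.72% on chromosome 12 and 7.84% on chromosome 10, and at most 6.22% on the rest. For higher calls chromosomes 11 and 12 were at 3.07% and 3.53%, within the range of the other 10 (2.50 to 3.83%). In 3'-end units the shares of lower calls varied more, from 3.52% on chromosome 5 to 9.69% on chromosome 12, and chromosome 11 was at 6.41%. In ENDS and CDS models, whose 12 prefixes were not assigned to chromosomes here, lower calls ranged from 1.17 to 2.41% by prefix. These shares are descriptions of 1 pair of varieties with no test between chromosomes.

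**Figure D5:**
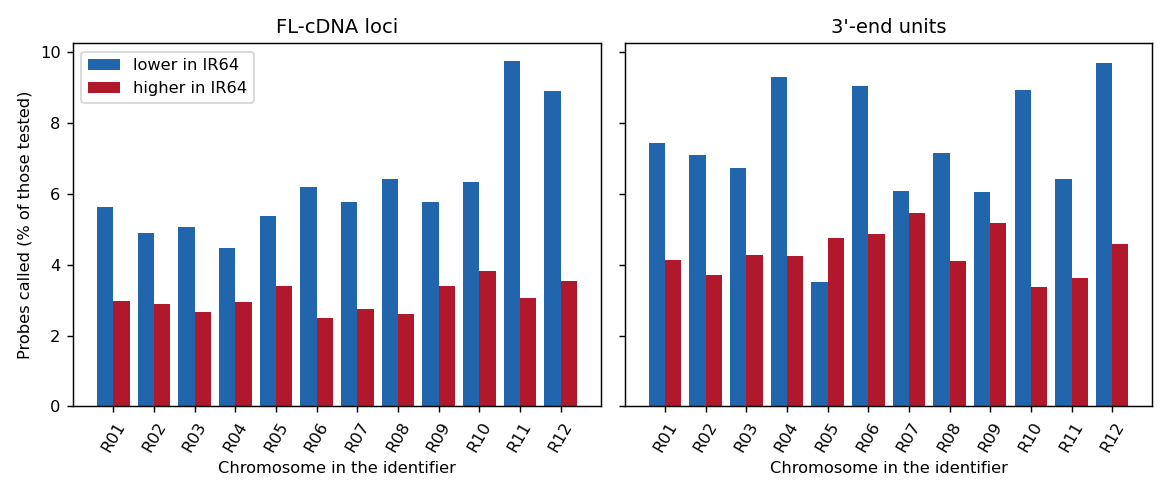
Share of probes called lower (blue) or higher (red) in IR64 shoot, in percent of the probes tested, by the chromosome in the identifier, for FL-cDNA loci and for 3'-end units. Chromosome 11 has the highest share of lower calls in FL-cDNA loci, at 9.77%, and not in 3'-end units, at 6.41%.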

How the data were processed

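RNA from IR64 shoot, and from Nipponbare root, panicle and callus, had been hybridized against Nipponbare shoot on 16 2-color arrays. The deposited intensity values are processed signals of Cy3 and Cy5, which the authors made with Agilent Feature Extraction (8.1 in the methods and file headers, 7.5 in the submitters' processing notes) by background subtraction and dye normalization within each array. The deposited log10 values are ratios the authors took from the same software; they equalled the ratios of the scanner files once those of Cy3-labeled tissue had been inverted. Deposited flags of 0 or 1, which mark signals above background, saturated or outlying, count as other values. Probes not above background carry surrogate values.

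Control spots and outlier spots were left out. Ratios were log2 of IR64 over Nipponbare on the same array, with a mean taken for the 1028 clone probes, which both sets hold. They were tested with limma 3.58.1 (R 4.3.3). Each array set was fitted on its own, with all 8 of its arrays, 1 coefficient for each comparison and no dye term, with Benjamini-Hochberg adjustment over both sets and a threshold of 0.05. In simulated data each value was drawn independently from a normal distribution with the residual spread of its probe. Only bright probes of array set 1 were changed. The fit called 45 of 50 probes set 16-fold lower and 44 of 50 set 16-fold higher. At 4-fold it called 36 of 50 set lower and 31 of 50 set higher. It also called 18 probes that had not been changed. No effect of dye or replicate was simulated, so these counts may not carry over to the real arrays. Tables were made with pandas 2.3.3. For arrays, the number of hybridizations limits the precision. Same-numbered replicates share dye orientation and, by the labels, mostly the shoot extract; their differences between replicates correlated across comparisons with r from 0.22 to 0.48, so a replicate block was fitted as an alternative.

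Named probes are, for each class, the 2 most increased and the 2 most decreased bright probes past the threshold, with replicates of the same sign and 1 probe per locus; the 4 with the largest bound in each direction among probes detected in 1 variety; up to 4 loci per direction with the most probes that all moved one way; and the 3 longest runs per direction. Bounds used signals corrected with normexp (offset 50), loess and Aquantile. All IR64 arrays were scanned on one day and every other comparison on another, so no scan block was fitted. The members and lists were chosen with earlier results of these data known. No probe identifier was found in the RefSeq gene table, which was therefore not used.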

Additional observations from a re-analysis of the deposited data

Results flagged for a closer look

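Of 32 values checked for a single hybridization far from the rest, 3 were marked; by chance about 1 in 20 such groups is. In the callus hybridization of replicate 1 the Nipponbare shoot level of AK062819 was 161424, where the other 7 lay between 72681 and 109400, and that of 9635.m01833_CDS was 204289, where the others lay between 95682 and 139486. Both are probes lower in IR64, and the IR64 arrays were not the ones that stood apart. In the IR64 hybridization of replicate 2 the Nipponbare shoot level of R08-E3TU-00556F was 181, where the others lay between 40.2 and 88.0.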

How the results depend on the processing

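All 20 named bright probes kept their direction under every alternative run, and stayed under the threshold in each except the fit on only the IR64 arrays, where limma called 0 probes higher and 0 lower. With only the IR64 arrays and only bright probes, 810 were higher and 1333 lower. A replicate block gave 3128 higher and 4354 lower, and 3830 and 5028 with only bright probes. It changed the call of 0 of the 20 named probes. With normexp, loess and Aquantile the log2 ratio was smaller in size at all 20. It went from 6.27 to 4.15 at 9632.m04206_CDS, from -6.37 to -5.05 at R03-E3TU-00836F and from -5.45 to -4.15 at AK099053. Without one IR64 replicate the counts ranged from 1747 to 2143 higher and from 2767 to 2920 lower, of which 1061 to 1121 and 2002 to 2032 were calls of the fit with both. Detection in Nipponbare shoot only gave 142 probes with the first background step alone and from 1855 to 6532 without one replicate; detection in IR64 shoot only gave 70, and from 1387 to 5634. Without replicate 2 there were 6532 Nipponbare-only and 1387 IR64-only probes, and without replicate 1 the excess was on the other side, with 1855 and 5634. At 4-fold, 4 loci were lower throughout and 0 higher, with 2 lower runs and 0 higher. Without one replicate, loci lower throughout numbered 32 to 42 and higher 6 to 8, and runs 18 to 29 lower and 9 higher. The causes of these changes were not tested, except that fewer replicates make these rules easier to meet. Normexp with loess and Aquantile, centring, the bright-probe filter, the deposited ratios and a trended spread kept both counts of calls within 1.5 times, from 2315 to 3319 higher and from 3534 to 4775 lower.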
